A study of Mus musculus with 4 samples.

Results

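The TGF-beta ligands, their receptors, the Smad proteins that carry their signal and the matrix gene Ccn2 were examined in mouse lung after bleomycin. The set was a list of 10 genes taken by gene symbol, out of 13410 genes with a probe in the annotation used. Of these 10, 9 had a probe and 8 were measured on 3 or 4 of the 4 arrays. Smad7 was not analysed here, and Tgfbr1 had a value on 1 array and was not testable. Each array compared lung RNA of 1 bleomycin-treated mouse of the inbred strain A/J, numbered 1 to 4, with a single pool of lung RNA from control A/J mice. The RNA of the treated mice and of the pool had been amplified, per the labels. Bleomycin is a drug that breaks DNA and is widely used to injure the mouse lung. The sources used here give no age, sex, dose, route or interval after treatment, and no number of mice in the pool.

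TGF-beta is secreted in a latent form, held by latent TGF-beta binding proteins in the matrix, and is set free by integrins and proteases. The active ligand binds its type II receptor (Tgfbr2), which switches on the type I receptor (Tgfbr1). The type I receptor phosphorylates Smad2 and Smad3, which join Smad4, enter the nucleus and change transcription. Smad7 is induced by the signal and shuts the receptor off, and Ccn2, also known as connective tissue growth factor, is a classical target. In the bleomycin-injured mouse lung the pathway is known as a driver of fibroblast activation and matrix deposition.

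Every value below is a log ratio between the channels of an array, centred on the median of that array and read as log2. The sources do not state which RNA forms the numerator, so genes are placed by their side of 0. The order of the names in the labels would put the treated mouse on top, in which case a value above 0 means more transcript in the treated lung. With the pool on top every sign would turn and every size and p would stay. The base of the logarithm is likewise unstated, and fold sizes hold only for base 2. The arrays had values for 9427 to 12136 of 17280 spots. Over spots with a value on both arrays, the log ratios of mice 1 and 2 (r = 0.73) and of mice 3 and 4 (r = 0.86) resembled each other more than those of any other pair (r from 0.45 to 0.57). These are correlations across spots, which are not independent replicates, and the labels record no reason for them. The pool is 1 control sample, so p-values rest on the spread between treated mice alone. A ratio from whole lung cannot tell fewer cells of a type from less RNA per cell. It also shows no level, so the tissue label could not be checked. Of 12 markers of alveolar epithelium, 9 were measured on 3 or more arrays, among them the surfactant genes Sftpa1, Sftpc and Sftpd. So were 10 of 15 striated muscle markers and 8384 of all 13410 genes with a probe, so having values does not mark lung.

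None of the 8 members tested passed the test (limma, Benjamini-Hochberg adjusted p at most 0.05 over all genes). Of all 8384 genes tested, 1048 passed, which is 12.5%. That share was 3.53% to 6.83% with a mouse left out and 4.79% with mice 1 and 2 and mice 3 and 4 as a random block, and 0 members passed in those 5 fits. At an unadjusted p under 0.05 there were 2 members, Smad2 and Ccn2, beside 2664 of all genes. The member means had a median of 0.14, with 7 above and 1 below 0, against a median of 0.0015 over all genes. On every array with a value, 5 of the 8 members kept 1 sign (Tgfb2, Smad2, Smad3, Smad4 and Ccn2), and 46.7% of all genes tested did. These shares are not matched, since 1 sign is kept more easily over 3 values than over 4. Tgfb2, Smad3 and Ccn2 had 3 values, as did 2327 of the 8384 genes. No member reached a 2-fold difference on any array. The members are given below from the ligands to the receptors, the Smads and the target.

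**Figure D1:**
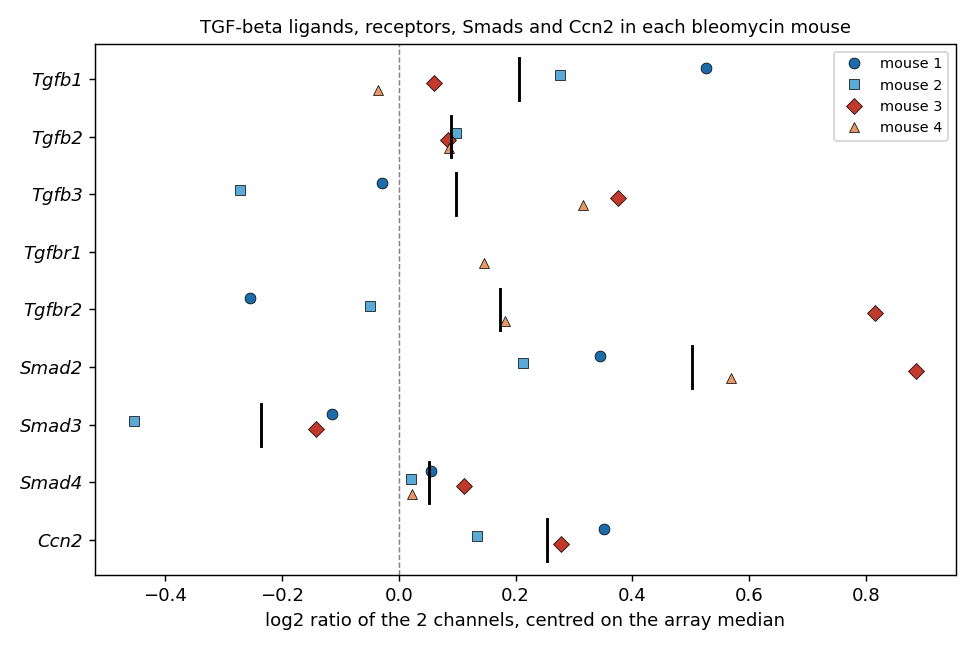
Centred log2 ratio of each member with a value (rows) on the array of each bleomycin mouse against the control pool (symbols, horizontal axis); vertical bars are means over 3 or 4 mice. Smad2 lies above 0 in all 4 mice, Smad3 below 0 in the 3 mice with a value, and Tgfb1, Tgfb3 and Tgfbr2 lie on both sides of 0.

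Tgfb1 (NCBI gene 21803), the ligand most abundant in blood platelets and the one most often tied to lung fibrosis, had log ratios of 0.53, 0.28, 0.06 and -0.04 in mice 1, 2, 3 and 4. The value was highest in mouse 1 and at about 0 in mice 3 and 4, which left a mean of 0.21 ± 0.25 (SD, n = 4). It did not pass (limma adjusted p = 0.24), and the 95% confidence interval of the mean ran from -0.06 to 0.47.

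Tgfb3 (gene 21809), a ligand needed for lung and palate development in the mouse, had log ratios of -0.03, -0.27, 0.38 and 0.32 in mice 1 to 4. Mice 1 and 2 were below 0 and mice 3 and 4 above, the reverse of the order seen for Tgfb1. The mean of 0.10 ± 0.30 (SD, n = 4) did not pass (limma adjusted p = 0.63, interval from -0.21 to 0.40). On the same arrays, the log ratio of Tgfb1 minus that of Tgfb3 was 0.55, 0.55, -0.32 and -0.35 in mice 1 to 4, so that the ligands swapped order between the mice. The mean of these differences, 0.11, was smaller than their SD of 0.51. An exact two-sided sign test of 4 such differences cannot give a p below 0.125.

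Tgfb2 (gene 21808), a ligand needed for heart and skeletal development in the mouse, had 0.10, 0.08 and 0.09 in mice 2, 3 and 4 and no value in mouse 1. The mean was 0.090 ± 0.0078 (SD, n = 3), and only 0.0596% of all genes tested had a smaller SD. A spread this small over 3 arrays says little about the precision of the assay, since an SD from 3 values is itself uncertain. The limma interval and p also draw on the spread of all genes. For Tgfb2 the limma adjusted p was 0.46 and the interval ran from -0.11 to 0.29.

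The promoters of Tgfb1 and Tgfb2 are shown because the log ratio varied between the mice for Tgfb1 and hardly for Tgfb2. These spreads are not matched, since Tgfb2 had no value in mouse 1, where Tgfb1 was highest. A link between promoter and spread was not tested. Shown as well are the promoters of Smad6 and Id3, both described further down, which lay above 0 in all 4 mice. The RefSeq promoter table of build GRCm38.p6 held 5 of the 10 members, and of the ligands Tgfb1 and Tgfb2. Each line gives the 250 bases before the annotated start, 5′ to 3′ on the strand of the gene. Capitals mark the motifs TATAAA (a form of the TATA box) and CAGAC (the core of a Smad-binding element), searched on both strands. Other forms of the TATA box were not searched and stay in small letters. No occurrence overlapped another.
Tgfb1, chr7:25686752-25687001, plus strand: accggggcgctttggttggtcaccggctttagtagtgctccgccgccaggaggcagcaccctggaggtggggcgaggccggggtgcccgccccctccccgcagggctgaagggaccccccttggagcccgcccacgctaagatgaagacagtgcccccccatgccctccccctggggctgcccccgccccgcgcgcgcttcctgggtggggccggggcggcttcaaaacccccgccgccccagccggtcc
Tgfb2, chr1:186705990-186706239, minus strand: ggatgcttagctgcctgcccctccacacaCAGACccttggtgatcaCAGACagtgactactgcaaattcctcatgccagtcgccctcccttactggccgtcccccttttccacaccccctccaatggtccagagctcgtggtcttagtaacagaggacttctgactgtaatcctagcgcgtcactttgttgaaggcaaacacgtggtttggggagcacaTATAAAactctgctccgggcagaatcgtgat
Smad6, chr9:64022060-64022309, minus strand: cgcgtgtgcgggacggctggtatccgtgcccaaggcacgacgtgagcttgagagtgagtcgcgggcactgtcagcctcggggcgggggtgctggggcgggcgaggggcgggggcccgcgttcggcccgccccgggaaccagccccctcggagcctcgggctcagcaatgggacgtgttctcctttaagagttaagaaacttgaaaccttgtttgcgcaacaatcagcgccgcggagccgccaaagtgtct
Id3, chr4:136143572-136143821, plus strand: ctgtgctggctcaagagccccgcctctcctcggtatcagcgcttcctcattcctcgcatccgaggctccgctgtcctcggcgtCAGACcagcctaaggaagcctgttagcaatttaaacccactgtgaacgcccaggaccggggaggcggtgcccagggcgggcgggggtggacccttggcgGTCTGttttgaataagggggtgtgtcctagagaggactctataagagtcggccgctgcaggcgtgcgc

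The Tgfb2 window held TATAAA from base 31 to base 26 before the start and CAGAC beginning 221 and 204 bases before it. The Tgfb1 window held neither motif and had 75.2% G and C, against 53.6% in that of Tgfb2. Id3 held CAGAC beginning 167 bases before the start and its reverse complement 68 bases before it, whereas Smad6 held neither motif. Of all 32851 windows of this length, 12.4% held TATAAA and 42.2% CAGAC on either strand. These matches describe letters in a window, and no binding was measured.

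Tgfbr2 (gene 21813), the type II receptor, varied more between mice than any other member. It had log ratios of -0.26, -0.05, 0.82 and 0.18 in mice 1 to 4, far above 0 in mouse 3 and below it in mice 1 and 2. The mean was 0.17 ± 0.46 (SD, n = 4; limma adjusted p = 0.54), and 91.9% of all genes tested had a smaller SD. Without mouse 3 the mean was -0.04, on the other side of 0. These values average 2 probes, which were not all present on each array. One probe had -0.26, -0.08, 0.82 and 0.43 in mice 1 to 4, and the other had -0.02 in mouse 2 and -0.07 in mouse 4 only. The probes therefore lay on opposite sides of 0 in mouse 4. Tgfbr1 (gene 21812), the type I receptor, had a single value of 0.15, in mouse 4.

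Smad2 (gene 17126), a Smad that the TGF-beta and activin receptors phosphorylate, had the largest mean of the set. Its log ratios were 0.34, 0.21, 0.89 and 0.57 in mice 1 to 4, above 0 in every mouse and highest in mouse 3. On each array it exceeded 84.9%, 78.2%, 95% and 92.9% of the genes tested. The mean of 0.50 ± 0.29 (SD, n = 4), a 1.42-fold difference, had a 95% confidence interval from 0.20 to 0.80. Its limma adjusted p of 0.051 was just over the threshold, and it fell to 0.043 when arrays were scaled to a common spread, to 0.045 among genes with 4 values and to 0.0499 when probes were tested singly. Without mouse 3 the mean was 0.38. In no fit that left out a mouse did Smad2 pass.

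Smad3 (gene 17127), a Smad that binds DNA directly and mediates much of the fibrotic response in mice, was the only member with a mean below 0. It had -0.11, -0.45 and -0.14 in mice 1, 2 and 3 and no value in mouse 4. The mean was -0.24 ± 0.19 (SD, n = 3; limma adjusted p = 0.19, interval from -0.50 to 0.03), with mouse 2 farthest from 0. Smad2 lay above Smad3 on each of the 3 shared arrays, by 0.46, 0.66 and 1.03 in mice 1, 2 and 3. The mean difference was 0.72 ± 0.29 (SD, n = 3), and an exact two-sided sign test of 3 differences cannot give a p below 0.25.

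Smad4 (gene 17128), the partner shared by the TGF-beta and bone morphogenetic protein (BMP) branches, stayed nearest to 0. It had 0.06, 0.02, 0.11 and 0.02 in mice 1 to 4, with a mean of 0.053 ± 0.042 (SD, n = 4; limma adjusted p = 0.60). The interval from -0.10 to 0.20 was the narrowest among the members. Smad2 lay above Smad4 on all 4 arrays, by 0.29, 0.19, 0.77 and 0.54 in mice 1 to 4, a mean of 0.45 ± 0.26 (SD, n = 4).

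Ccn2 (gene 14219), which encodes a matricellular protein and is induced by TGF-beta in fibroblasts, had 0.35, 0.13 and 0.28 in mice 1, 2 and 3 and no value in mouse 4. All 3 values were above 0, with a mean of 0.25 ± 0.11 (SD, n = 3), a 1.19-fold difference. The interval ran from 0.03 to 0.48, and the gene did not pass after adjustment over all genes (limma adjusted p = 0.12). Among 9 tested markers of fibroblasts and myofibroblasts, cells that express Ccn2, 2 passed above 0 and 0 below. The list medians were 0.13, 0.23, 0.47 and 0.25 in mice 1 to 4. Endothelial cells express Ccn2 too, and 7 of their 9 tested markers passed above 0. Over all genes, 7.69% passed above 0. The part of either cell type in the Ccn2 values was not tested.

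By their means, the members ran from Smad2 through Ccn2, Tgfb1, Tgfbr2, Tgfb3, Tgfb2 and Smad4 to Smad3. For 6 of the 7 neighbouring pairs in this order, the mean difference on shared arrays was smaller than its SD between mice. The exception was Smad4 above Smad3, by 0.30 ± 0.16 (SD, n = 3), on all 3 shared arrays. The mean of Smad2 exceeded in size 87.0% of the means of all genes tested, that of Ccn2 67.1%, that of Smad3 64.6% and that of Tgfb1 60.2%. The means of the other members exceeded between 20.6% (Smad4) and 53.8% (Tgfbr2).

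**Figure D2:**
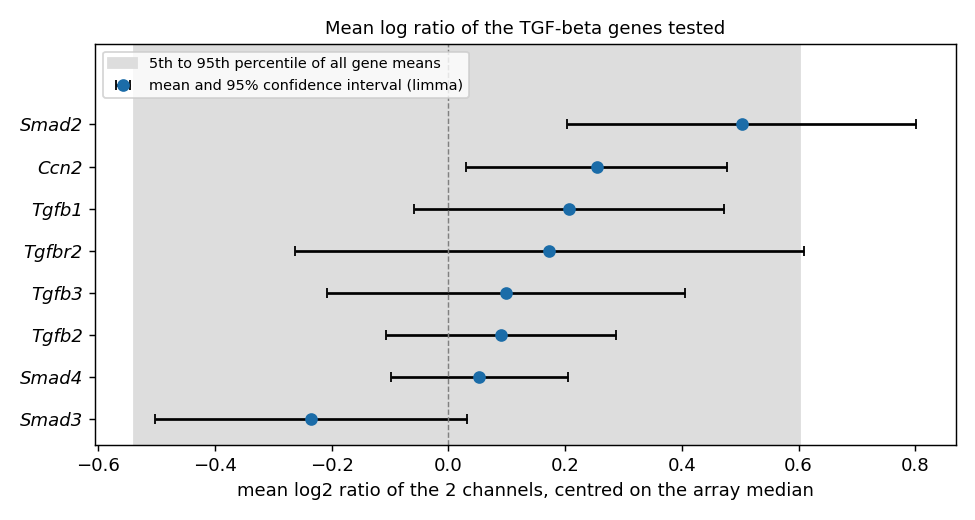
Mean centred log2 ratio of each member tested (points, 3 or 4 bleomycin mice against the control pool) with its 95% confidence interval from limma; the grey band spans the 5th to 95th percentile of the means of all 8384 genes, -0.54 to 0.60. The intervals of Smad2 and Ccn2 lie above 0, and all means lie inside the band.

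The genes with the most similar log ratios were found by the root-mean-square difference over the 4 arrays, among the 6057 genes with 4 values. Nearest to Tgfb1 were Ints10 (0.023) and Lzts2 (0.035), nearest to Tgfb3 were Ormdl3 (0.031) and Ptf1a (0.036), and nearest to Smad2 were Irf9 (0.036) and Memo1 (0.051). Smad4 had Lrrc34 (0.020) and Prox1 (0.026) closest to it. Tgfbr2 had fewer close neighbours, Ppp2r3c (0.093) and Ltbp1 (0.10). Ltbp1, which encodes a latent TGF-beta binding protein, had log ratios of -0.11, -0.02, 0.69 and 0.14 in mice 1 to 4, with mouse 3 highest as for Tgfbr2. Within a difference of 0.2 lay 47 genes for Tgfbr2, 155 for Smad2, 378 for Tgfb3, 405 for Tgfb1 and 2121 for Smad4, so close neighbours were common for genes near 0.

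Outside the 10 members, 177 further genes of the pathway were listed in groups by role, and 96 of them were tested. Of these, 18 passed (limma), 14 above and 4 below 0, or 18.8%. The shares over all genes were 12.5% in total, 7.69% above 0 and 4.81% below. The median of the means was 0.06 over the 96 genes and 0.0015 over all genes. With a mouse left out, between 7 and 13 of the 96 passed (7.29% to 13.5%, against 3.53% to 6.83% of all genes), and with the block 7 did. Of the 18, Smad6, Tab2, Timp3, Postn and Cdkn1a passed whichever mouse was left out.

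Among genes that store and release TGF-beta, 17 of 31 listed were tested, and 2 passed above 0 and 1 below. This was 17.6%, against 12.5% of all genes. The latent TGF-beta binding protein gene Ltbp4 had 1.01, 0.83, 0.68 and 0.13 in mice 1 to 4, weakest in mouse 4, with a mean of 0.66 ± 0.38 (SD, n = 4; limma adjusted p = 0.043). Ltbp3 had a mean of 0.34 ± 0.12 (SD, n = 4; limma adjusted p = 0.042), whereas Ltbp1 did not pass (limma adjusted p = 0.44). Mmp14, a membrane-bound metalloproteinase, had -0.36, -0.41 and -0.40 in mice 2, 3 and 4. Leaving out any mouse ended the calls of Ltbp3 and Mmp14, and leaving out mouse 1, 2 or 3 that of Ltbp4 (highest limma adjusted p = 0.15). The integrin genes Itgav and Itgb6, whose products release TGF-beta from its latent complex, had means of 0.06 ± 0.12 and -0.018 ± 0.066 (SD, n = 4) and did not pass.

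Of 17 further receptors and coreceptors of the superfamily, 8 were tested and 1 passed, or 12.5%, the same share as over all genes. The gene that passed was Bmpr2, the type II receptor for BMPs. It had 0.41, 0.52, 0.38 and 0.46 in mice 1 to 4, close together and all above 0 (limma adjusted p = 0.016). Leaving out mouse 1, 3 or 4 ended this call (highest limma adjusted p = 0.064). Acvrl1, an endothelial type I receptor gene, had 0.27, 0.58, 0.01 and -0.16 and did not pass (limma adjusted p = 0.40). The coreceptor gene Eng had 0.23 and 0.32 in mice 1 and 2 only, and Tgfbr3 had 0.16 in mouse 1 only. Of 40 other ligands and ligand antagonists, 15 were tested and 0 passed, with means between -0.16 and 0.55.

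The Smads and Smad regulators outside the member list had 7 calls above and 1 below 0 among 26 tested, or 30.8%, against 12.5% of all genes. The calls fell to 3 or 4 with a mouse left out and to 3 with the block, or 11.5% to 15.4%. Over all genes the share was then 3.53% to 6.83% with a mouse left out and 4.79% with the block. Smad6, which encodes an inhibitory Smad of the BMP branch, had 0.56, 0.50, 0.63 and 0.56 in mice 1 to 4, nearly equal in all. Its mean was 0.56 ± 0.06 (SD, n = 4), a limma adjusted p of 0.010. Smad1, a Smad that BMP receptors phosphorylate, averaged 0.20 ± 0.13 (SD, n = 4) with a limma adjusted p of 0.14.

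Tab2, an adaptor of the TGF-beta-activated kinase Tak1, had the largest mean of the pathway, at 0.95, 0.75, 1.52 and 1.31 in mice 1 to 4 (limma adjusted p = 0.012). Bambi, which encodes a decoy receptor without a kinase domain, had 0.85, 0.51, 0.90 and 0.35 (limma adjusted p = 0.024). Fkbp1a, whose product holds the type I receptor inactive, had a mean of 0.62 ± 0.14 (SD, n = 4). Usp15, a deubiquitinase that acts on Smads, was at 0.35 and 0.47 in mice 1 and 2 and at 1.19 and 0.97 in mice 3 and 4. Xiap, a ubiquitin ligase that binds Tab1, had a mean of 0.71 ± 0.29, and Wwp1, another ubiquitin ligase, of 0.32 ± 0.09 (SD, n = 4). Below 0 lay Tgif2, a corepressor of Smads, with -0.37, -0.72 and -0.99 in mice 1, 2 and 3. The calls of Usp15, Wwp1 and Tgif2 ended when any mouse was left out, that of Fkbp1a without mouse 4, that of Xiap without mouse 2 or 4 and that of Bambi without mouse 1 or 3 (highest limma adjusted p = 0.12). The ubiquitin ligase gene Smurf1 had a mean of -0.03 ± 0.16 (SD, n = 4), and Smad5, Ski, Skil and Smurf2 had too few values to test.

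Of 48 genes listed as induced by TGF-beta, 30 were tested, and 4 passed above and 2 below 0. This was 20.0%, against 12.5% of all genes. Postn, which encodes the matricellular protein periostin, had 1.10, 0.61, 1.06 and 0.68 in mice 1 to 4 (limma adjusted p = 0.012). Timp3, an inhibitor of metalloproteinases, had 0.62, 0.57, 0.78 and 0.88, and Id3, an inhibitor of helix-loop-helix factors that BMPs also induce, had 0.52, 0.36, 0.74 and 0.40. Each of these was above 0 in all mice. Bhlhe40, a transcriptional repressor, had 0.61, 0.24, 1.28 and 0.89. Cdkn1a, a cell cycle inhibitor and also a p53 target, had -1.11, -0.98, -0.80 and -0.56, below 0 in all mice. Lox, which crosslinks collagen, had -0.80, -1.10 and -0.40 in mice 2, 3 and 4. Leaving out mouse 1, 3 or 4 ended the calls of Id3 and Bhlhe40, and leaving out any mouse that of Lox (highest limma adjusted p = 0.13). The list thus lay on both sides of 0, with a median of 0.06.

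The collagen genes most often used as readouts did not pass. Col1a1 had -0.05, 0.04, 0.67 and 0.25 in mice 1 to 4 (limma adjusted p = 0.28). Col3a1 had -1.02, -1.34, 0.07 and 0.09 (limma adjusted p = 0.22), so that mice 1 and 2 lay more than 2-fold below 0 and mice 3 and 4 at about 0. Tgfbi, a TGF-beta-induced matrix gene, had a mean of -0.03 ± 0.26 (SD, n = 4; limma adjusted p = 0.89). Acta2, the smooth muscle actin of myofibroblasts, had 0.59 and 0.09 in mice 1 and 2 only, and Fn1 was not analysed here. Of the CCN family beside Ccn2, Ccn3 had 0.65, 0.20 and 0.68 in mice 1, 2 and 3 (limma adjusted p = 0.062), Ccn4 had a mean of -0.09 ± 0.22 (SD, n = 4), and Ccn1 had -0.32 in mouse 1 only.

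**Figure D3:**
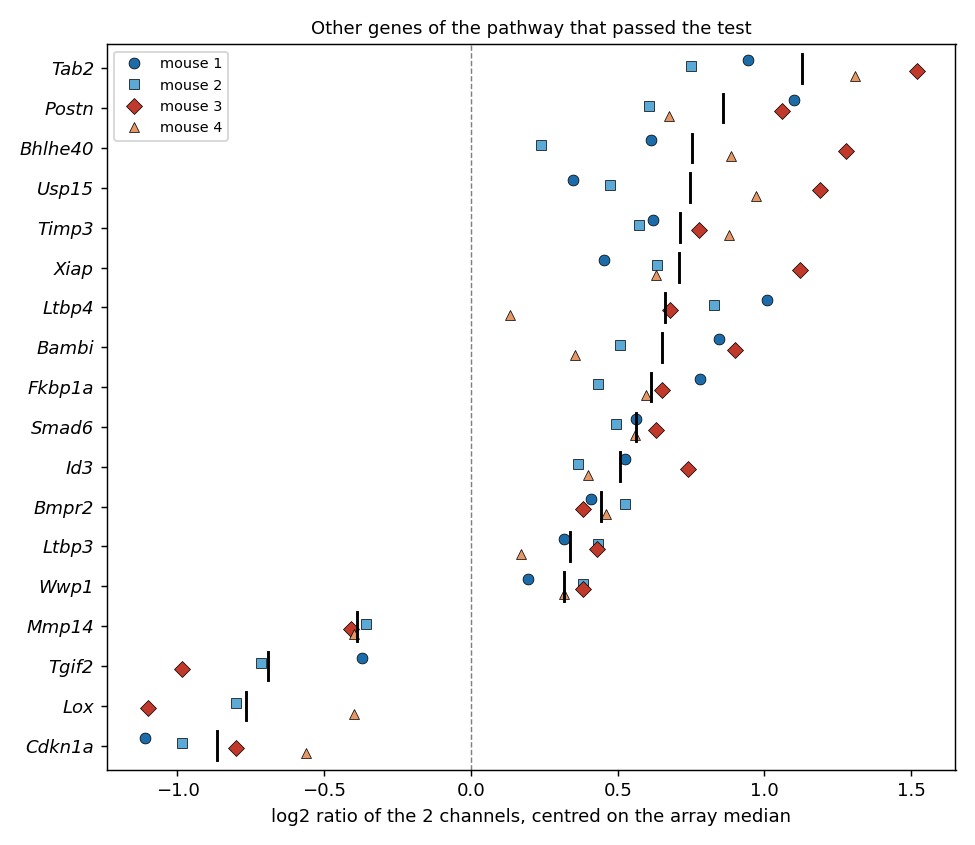
Centred log2 ratio of the 18 pathway genes outside the member list that passed the test (rows) on the array of each bleomycin mouse against the control pool (symbols, horizontal axis); vertical bars are means over 3 or 4 mice. All mice with a value lie on the same side of 0 for each gene, 14 genes above and 4 below, and Smad6 and Bmpr2 vary least among the genes with 4 values.

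Markers of cell types that could contribute these transcripts passed the test as well. The share over all genes was 12.5%, with 7.69% above and 4.81% below 0, and 3.53% to 6.83% with a mouse left out. Among the 96 pathway genes tested outside the member list, 14 passed above 0 and 4 below. Ltbp1 and the endothelial receptor gene Acvrl1 were among those that did not pass. Of 12 endothelial markers, 9 were tested. Of those, 7 passed above 0 and 0 below (Tmem100 1.61 ± 0.34, S1pr1 1.03 ± 0.18 and Tek 1.18 ± 0.24; SD, n = 4), and the list medians were 1.01, 0.96, 0.72 and 0.73 in mice 1 to 4. Between 3 (without mouse 4) and 6 of these markers passed with a mouse left out, and Tmem100, S1pr1 and Tek did so each time. Of 9 fibroblast markers, Postn and Cdh11 (0.83 ± 0.22, SD, n = 4) passed above 0, also whichever mouse was left out. Postn is also among the listed TGF-beta-induced genes. Of the 9 means, 7 lay above 0, and Col3a1 at -0.55 and Pdgfra at -0.19 lay below without passing.

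Platelets and macrophages are sources of Tgfb1. Of 3 platelet markers tested, Gp9 passed below 0 at -0.48 ± 0.24 (SD, n = 4), but not without mouse 1, 3 or 4. The others, Pf4 at -0.57 ± 0.41 (SD, n = 3) and Ppbp at 0.21 ± 0.23 (SD, n = 4), did not pass. Of 6 macrophage markers tested, 3 had means above 0 and 3 below, with a median of 0.04. Siglecf at 0.54 ± 0.13 (SD, n = 4) and Mrc1 at 0.74 ± 0.16 (SD, n = 3) passed above 0, and neither did without mouse 3 or without mouse 4. Marco at -0.49, Itgax at -0.31 and Cd68 at -0.07 did not pass.

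Of 6 neutrophil markers tested, 2 passed below 0, S100a8 at -2.28 and S100a9 at -2.08, the second lost without mouse 4. The others did not pass, with Camp at -0.33 and Mpo at -0.16 below 0 and Mmp8 at 0.19 and Elane at 0.007 above. The median of the neutrophil means was -0.24. Of 9 alveolar epithelial markers tested, 2 passed above and 1 below 0, and 7 of the means lay above 0. Sftpa1, at 1.28, passed whichever mouse was left out, Rtkn2, at 1.19, was lost without mouse 4, and Aqp5, at -0.34, in all 4 such fits. Of 10 striated muscle markers tested, 4 passed below 0. All muscle means lay below 0, with list medians between -2.78 and -0.47 over the mice. Tnnc2 at -4.90 and Myl1 at -2.91 passed whichever mouse was left out, and Ldb3 at -1.67 was lost without mouse 3 or 4. Of 5 fat markers tested, 4 passed below 0, among them Cidea at -2.53, Plin4 at -0.79 and Gpd1 at -0.54. All fat means lay below 0, with list medians between -2.19 and -0.20. With mouse 1, 3 or 4 left out, 0 fat markers passed limma, at adjusted p of 0.052 or more for the named genes, and with mouse 2 left out all 5 did. The part of these cells in the values of the pathway genes was not tested.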

How the data were processed

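Log ratios of 4 bleomycin arrays against 1 control pool, 1 per spot and array, were used as the authors deposited them and read as log2. The sources used here give no scanner, dye, background correction or normalization, and no signal per spot. Other columns of per-sample values numbered 0. Symbols came from the platform's annotation, with 14722 of 17280 spots tied to 1 symbol; gene IDs of 14445 matched the RefSeq table of GRCm38.p6, which changed 0 symbols.

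Each array was centred on its median, and probes of a gene were averaged per array. Genes with values on at least 3 arrays (8384) were tested with limma 3.58.1 in R 4.3.3 (lmFit with an intercept, eBayes, two-sided test against 0, Benjamini-Hochberg adjustment over all genes, threshold 0.05). Intervals are limma's at 95%. The fit was tested on simulated data with independent noise on each array, so that test does not cover likeness between mice. Nothing says how the arrays were processed or grouped, so p-values measure only the spread between these 4 samples.

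The members, lists, tests and alternatives were chosen with earlier results of these data known. Named genes are all members, up to 8 genes past the test per pathway list, 28 pathway genes whatever their value, up to 3 markers past the test per marker list, and the 2 genes nearest to each member with 4 values; values of other listed genes were chosen after they were seen. Alternatives were no centring, a common spread of arrays, the median of probes, single probes, other minimum numbers of arrays, a robust prior, mice 1 and 2 and mice 3 and 4 as a random block, and leaving out each mouse.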

Additional observations from a re-analysis of the deposited data

How the results depend on the processing

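Of 93 recomputed values of the 8 members, 89 kept their side of 0 and of the threshold. The number of members past the test was 0, and 1 (Smad2) in each of 3 settings: with arrays scaled to a common spread (mean 0.503, limma adjusted p = 0.043), among genes with 4 values (mean 0.503, limma adjusted p = 0.045) and with single probes (mean 0.503, limma adjusted p = 0.0499). Over all 12 settings the limma adjusted p of Smad2 ranged from 0.043 to 0.15. Leaving out a mouse moved its mean between 0.38 and 0.60 and that of Tgfbr2 between -0.041, without mouse 3, and 0.32, without mouse 1; the cause was not tested. Of all genes, 1048 passed, against 296 to 573 with a mouse left out, when fewer samples entered the fit, and 402 with mice 1 and 2 and mice 3 and 4 as a random block (estimated correlation 0.30). Of the other pathway genes, 18 passed, against 7 to 13 with a mouse left out and 7 with the block (Smad6, Tab2, Timp3, Postn, Cdkn1a, Fkbp1a and Bmpr2). No paired analysis was possible because the arrays form 1 group. The number of arrays limits the precision, and dim spots could not be judged because signal over background was not used here.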

Other observations

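Mice 1 and 2 differed from mice 3 and 4 for Tgfb1 and, in the opposite direction, for Tgfb3. A difference between these pairs also appeared in single other genes, picked after their values were seen. Some lay higher in mice 3 and 4, as Tgfb3 did. The proteoglycan gene Dcn, whose product binds TGF-beta, had -0.54, 0.23, 0.79 and 0.84 in mice 1 to 4, and the fibrillar collagen gene Col5a1 had -0.72, -0.64, -0.11 and 0.19. The macrophage scavenger receptor gene Marco had -1.23, -1.46, 0.33 and 0.41. None of these passed (limma adjusted p of 0.39, 0.25 and 0.40). Others lay higher in mice 1 and 2, as Tgfb1 did. The integrin gene Itgb1 had 0.03, 0.06, -0.87 and -0.44 in mice 1 to 4. Tsc22d1, listed as induced by TGF-beta, had 0.68, 0.49, -0.48 and -0.17. Neither passed (limma adjusted p of 0.27 and 0.70). The labels name no batch, and these patterns were not tested. Among the 45 member and named genes with 4 values, in 0 did a single mouse lie apart from the others by Dixon's test at the 95% level.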
